A study of Homo sapiens with 6 samples.

Results

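The 47 genes described here encode the machinery that copies DNA in S phase and the enzymes that supply its nucleotides. They were taken from a list of names and fall into 8 roles: origin licensing, the MCM helicase, helicase activation and firing, S-phase entry kinases, DNA polymerases and primase, the sliding clamp with its loader and the single-strand binding protein, Okazaki fragment maturation with fork checkpoint and uracil removal, and nucleotide supply. Of the 47, 46 averaged 50 counts or more per library and are among 11909 such genes of 52992 in all. PRIM2, which encodes the large subunit of primase, lay outside that minimum with a mean count of 26.2, and the lowest gene inside it was its partner PRIM1 with 498. RNA was measured in the human bladder cancer line J82 in 2 forms: tet-ZFP36L1, which overexpresses the RNA-binding protein ZFP36L1 under doxycycline, and tet-control. Both forms were grown to near confluence and received doxycycline, the inducing drug, at 1 µg/mL for 6 or 24 h or were left without it (0 h), so that the groups are tet-ZFP36L1 at 0, 6 and 24 h and tet-control at 0, 6 and 24 h. Each of the 6 groups is 1 library. The sources used here do not say whether either form is 1 clone or what the control construct carries.

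DNA replication is prepared in G1, when the origin recognition complex, CDC6 and CDT1 load the ring of MCM proteins onto origins. Geminin blocks this step once S phase has begun. The kinases CDC7 with DBF4 and CDK2 with cyclin E then turn the loaded ring into an active helicase with CDC45 and the GINS complex, and the polymerases copy the strands behind it on the clamp PCNA. Ribonucleotide reductase, thymidylate synthase and thymidine kinase make the deoxynucleotides, and E2F transcription factors raise many of these genes together as cells enter S phase. ZFP36L1 belongs to a family of proteins that recognise AU-rich stretches in the 3' untranslated region (UTR) of an mRNA and recruit the enzymes that shorten and degrade it.

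E2F-type words in promoters and the AU-rich word TATTTAT in 3' UTRs were looked up, because they are the letters these regulators are known to read. The E2F-type words were TTTCCCGC, TTTGGCGC, TTTCGCGC and TTTGCCGC, searched on both strands of windows from 250 bases before to 50 bases after the annotated start (RefSeq, GRCh38.p14). A window was available for 39 of the 47 genes, and 22 of these 39 (56.41%) held at least 1 such word, against 6.918% of 9092 measured genes with a window and 3.992% of all 27305 genes with one. The MCM6 window, chr2:135876394-135876693 on the minus strand, held 4 words in 2 overlapping pairs and was the richest, and 30-base stretches of 4 further promoters are shown for genes whose values are described below. Capitals mark the words, and overlapping words run together.
MCM6: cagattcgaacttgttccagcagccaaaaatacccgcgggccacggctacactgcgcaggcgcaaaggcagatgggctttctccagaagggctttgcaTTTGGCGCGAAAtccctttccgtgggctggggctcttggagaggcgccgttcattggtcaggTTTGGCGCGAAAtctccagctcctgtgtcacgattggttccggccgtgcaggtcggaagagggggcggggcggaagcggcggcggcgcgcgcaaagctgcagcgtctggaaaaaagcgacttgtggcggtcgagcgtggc
CDC25A (chr3:48188443-48188472, minus strand): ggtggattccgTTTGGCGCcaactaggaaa
GMNN (chr6:24775322-24775351, plus strand): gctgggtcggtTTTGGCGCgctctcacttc
RFC3 (chr13:33818083-33818112, plus strand): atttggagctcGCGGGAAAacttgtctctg
TYMS (chr18:657603-657632, plus strand): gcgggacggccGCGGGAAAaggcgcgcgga
The windows of RRM2, ORC6 and CDC45, the 3 genes with the largest differences at 24 h, held none of these words. A match is a description of the letters and not a binding site, and the absence of one concerns these letters in this window only.

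The AU-rich word was searched on the transcript strand in 1 transcript of each protein-coding gene (GENCODE 29, GRCh38). The bases after its annotated stop codon were taken as the 3' UTR. The transcript was the one with the highest mean TPM among those with at least 50 such bases, whatever its annotated type. For DBF4 it was a transcript annotated for nonsense-mediated decay. The word occurred in 7 of the 46 measured genes (15.22%), against 27.8% of 10989 genes. The searched UTRs had a median of 672.5 bases in the 46 genes, against 862 in the 10989. The 2 shares are therefore not matched for length. The 7 were CDC45, ORC6, CDC6, CDK2, POLA2, POLD3 and POLE2, and POLA2 held 2 overlapping copies. The sites of the pair that was lower at both times are shown with the word in capitals. In CDC45 the 3' UTR is 132 bases long and the word starts at base 29 of it. In ORC6 the 3' UTR is 809 bases long and the word starts at base 796, at its end.
CDC45 (chr22:19520497-19520526, plus strand): aatgaccttctTATTTATgtaactggcttt
ORC6 (chr16:46698365-46698394, plus strand): ctaagttaataaatgtTATTTATatatgca
CDC6, CDK2, POLA2, POLD3 and POLE2 carry the word and did not pass 1.5-fold at either time.

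The libraries held between 20739025 and 21380480 estimated counts. In CPM, a gene's counts relative to the scaled total of its library, ZFP36L1 itself had 220.2, 3127 and 3133 at 0, 6 and 24 h in tet-ZFP36L1, against 233.8, 223.3 and 206.0 in tet-control, as the labels state. Of 13 urothelial markers 5 were measured at a mean count of at least 50, and the uroplakins UPK2 and UPK3A were at 0 in every library. All 3 mesenchymal markers were measured, and none of the leukocyte, endothelial or erythroid markers was. The summed level of the mesenchymal markers was 11408, 13631 and 3572 CPM in tet-ZFP36L1 at 0, 6 and 24 h, against 1179, 1616 and 1350 CPM in tet-control. This sum was thus far higher in tet-ZFP36L1 than in tet-control already at 0 h. The median log2 difference of these markers between the lines at 0 h was 1.09, so not every marker shared the gap of the sum. Within tet-ZFP36L1 the sum was lower at 24 h than at 0 and 6 h. Of 3 epithelial markers 1 was measured, and their summed level was 4.30 to 5.65 CPM in tet-ZFP36L1, against 5.40 to 9.13 CPM in tet-control. At 24 h tet-ZFP36L1 had 15695 genes with at least 10 counts, against 14515 to 14956 in the other libraries, and its scaling factor was 1.115, against 0.941 to 1.006. The part of these library differences in the results was not tested.

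Values are compared as differences of log2(CPM + 0.5), a scale that understates changes of low genes. The induction difference subtracts the change of tet-control since 0 h from that of tet-ZFP36L1 over the same hours. A gene is called lower or higher where this difference passes 1.5-fold, which is 0.58 on the log2 scale. With 1 library per group there is no test and no p-value, and the ranges in brackets are nominal 95% intervals of counting error that leave out variation between cultures. The differences at 6 and 24 h share both 0 h libraries. In bulk RNA, fewer cells in S phase and less RNA per cell cannot be told apart.

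At 24 h the replication genes leaned low in the ZFP36L1 line, with RRM2, ORC6, CDC45, CCNE2 and CDC25A more than 2-fold lower and MCM6 standing at the opposite end. The median induction difference of the 46 genes was -0.33, against -0.02 over all 11909 genes. Below 0 were 40 of the 46, against 51.6% of all genes. Fewer of the 46 were below 0 without a scaling factor and in TPM. Lower by 1.5-fold were 9 genes (19.6%) and higher were 0, while 17.4% of all genes were lower and 13.9% higher. The share of lower calls was therefore near the background, and the 9 genes were RRM2, ORC6, CDC45, CCNE2, CDC25A, GMNN, RFC3, TYMS and MCM10. The other 37 lay between -0.53 in PRIM1 and 0.56 in MCM6. Without a scaling factor between libraries the median was -0.16 with 7 lower and 1 higher, against 12.1% and 20.7% of all genes, whose own median then stood at 0.15. With the deposited TPM, which is corrected for transcript length, the median was -0.20 with 6 lower and 1 higher, against 13.4% and 18.9% of all genes.

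At 6 h the picture was mixed. The median induction difference was 0.12 and 30 of the 46 genes were above 0. The other 16 were below 0, against 50.55% of all genes below 0. Lower by 1.5-fold were 4 genes (8.7%), against 14.3% of all genes, and these were CCNE2, CDC25A, CDC45 and ORC6. All 4 were also lower at 24 h. Higher were RPA3 and DBF4, 4.35% of the genes against 7.02% of all genes, and neither was past 1.5-fold at 24 h.

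**Figure D1:**
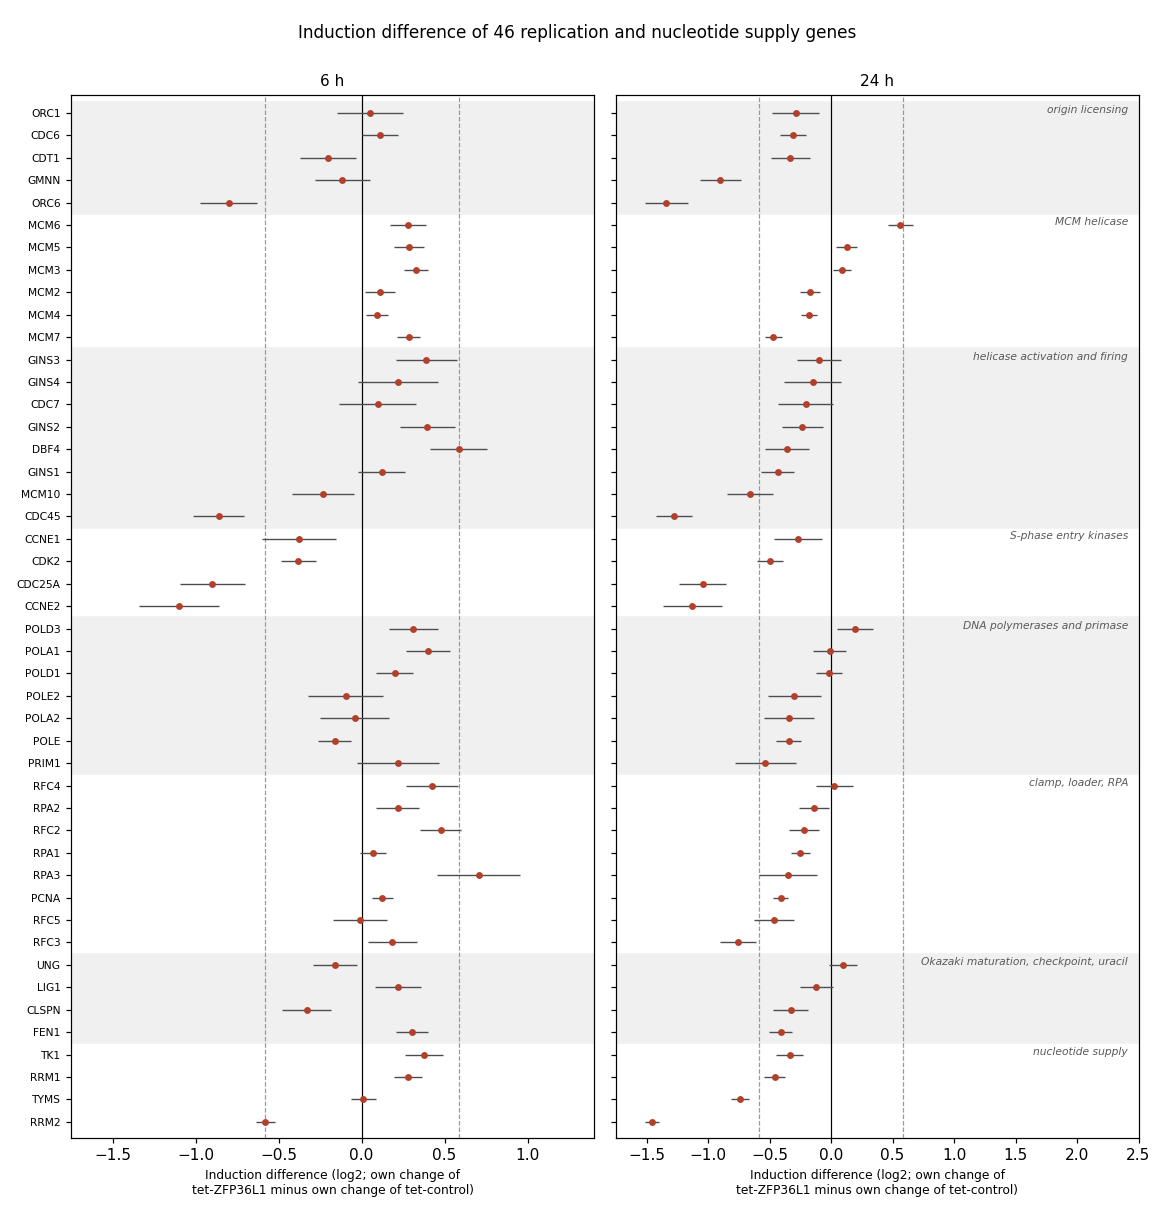
Induction difference (log2, horizontal axis) of each of the 46 measured genes at 6 h (left) and 24 h (right), grouped by role and ordered by the value at 24 h. Points are single values from 1 library per group, bars are 95% intervals of counting error, and dashed lines mark 1.5-fold. At 24 h 40 points lie below 0, from -1.45 in RRM2, and MCM6 lies highest at 0.56.

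Taking the lines one at a time showed that the control line moved too. In tet-control 39 of the 46 genes (84.8%) were below their 0 h level at 6 h, against 50.8% of all genes, with a median change of -0.23. Only RPA3 passed 1.5-fold there, lower at -0.89, against 7.72% of all genes lower and 7.47% higher. At 24 h the median change in tet-control was 0.02 and no replication gene passed 1.5-fold in either direction, against 1.92% of all genes lower and 1.6% higher. The control line thus held 36 of the 46 genes (78.3%, against 36.2% of all genes) below the starting level at 6 h and nearer to it at 24 h.

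In tet-ZFP36L1 the median change was -0.22 at 6 h, close to that of the control line, and -0.29 at 24 h. At 6 h 6 genes were lower and 1, DBF4, was higher, against 15.6% and 9.09% of all genes. At 24 h 9 genes (19.6%) were lower and 0 higher, against 17.0% and 11.8% of all genes. Without a scaling factor the 24 h median was -0.15 with 7 lower and 0 higher, against 12.1% and 18.1% of all genes. Genes below their 0 h level at both times numbered 29 of 46 (63.0%), against 36.1% of all genes. The summed level of the 46 genes was 5859, 5206 and 4660 CPM in tet-ZFP36L1 at 0, 6 and 24 h, against 6786, 5792 and 7038 CPM in tet-control. Both lines were thus lower at 6 h than at 0 h, and at 24 h the ZFP36L1 sum was below that of the control line. Which time held the lowest or highest sum of a line moved with the scaling. Without a scaling factor the sums were 5893, 5067 and 5194 CPM in tet-ZFP36L1, against 6753, 5451 and 6885 CPM in tet-control, and in TPM they were 4462, 3770 and 3712 in tet-ZFP36L1, against 4989, 4009 and 4938 in tet-control.

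The lines already differed before doxycycline. At 0 h 40 of the 46 genes were below tet-control in tet-ZFP36L1, against 50.3% of all genes, with a median difference of -0.27. However, MCM5 alone passed 1.5-fold, at -0.64, against 7.98% of all genes lower and 10% higher. At 6 h the median difference between the lines was -0.17, with 6 genes lower and 1, RPA3, higher, against 15.3% and 12.4% of all genes. At 24 h it was -0.58, and 45 of the 46 genes were below tet-control, against 52.7% of all genes. MCM6 was the exception at 0.28. The number below tet-control was 41 without a scaling factor and 40 in TPM.

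This comparison of the lines at 24 h gave the highest share of lower calls, 23 of 46 genes and 0 higher, against 20.3% of all genes lower and 18.4% higher. It moved with the scaling. Without a scaling factor between libraries 11 genes were lower, against 13.8% of all genes lower and 25.6% higher, and the median of all genes then stood at 0.14. With the deposited TPM 11 genes were lower as well, against 13.5% and 25.4% of all genes. Genes below tet-control at all 3 times numbered 31 of 46 (67.4%), against 27.7% of all genes, and 40 of 46 (87.0%, against 51.6%) were further below it at 24 h than at 0 h. The lowest of the 6 libraries was tet-ZFP36L1 at 24 h for 30 of the 46 genes (65.2%), against 29.1% of all genes, and it was tet-control at 0 or 24 h for none of the 46.

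**Figure D2:**
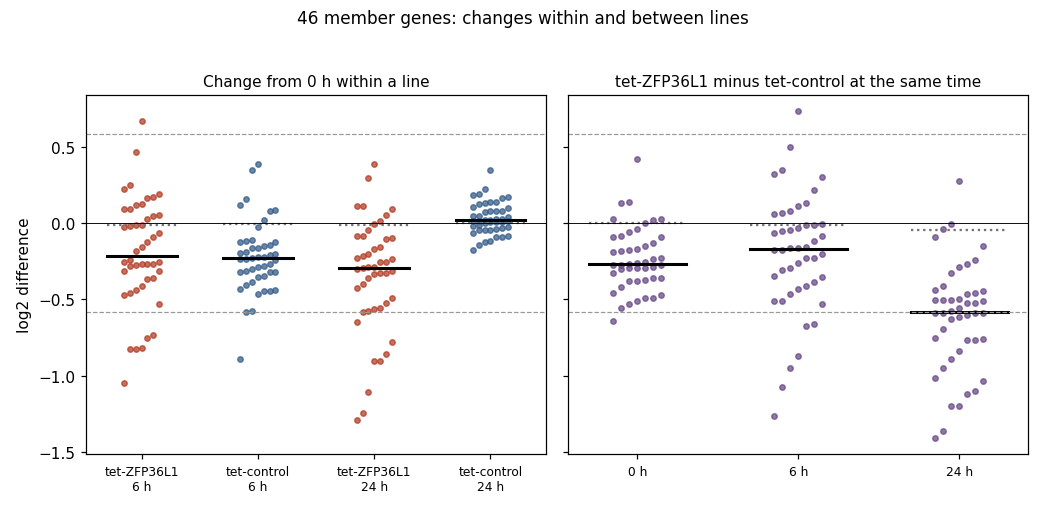
Changes of the 46 genes from 0 h within each line at 6 and 24 h (left panel, log2, tet-ZFP36L1 left of tet-control) and differences of tet-ZFP36L1 minus tet-control at 0, 6 and 24 h (right panel, log2). Each point is a gene, the black bar is the median of the 46, the dotted bar is the median of all 11909 genes and dashed lines mark 1.5-fold. Both lines have medians below 0 at 6 h, and at 24 h the control median is 0.02 while that of tet-ZFP36L1 is -0.29.

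Among the licensing genes, ORC6 and GMNN carried the larger differences. ORC6, the smallest subunit of the origin recognition complex (ENSG00000091651, chromosome 16), had 68.0, 38.1 and 27.5 CPM in tet-ZFP36L1 at 0, 6 and 24 h, against 61.7, 60.5 and 63.8 CPM in tet-control. Its 3 control values and the 0 h value of tet-ZFP36L1 lie together, and both doxycycline libraries of tet-ZFP36L1 lie below all of them. The induction difference of ORC6 was -0.80 (-0.97 to -0.63) at 6 h and -1.34 (-1.51 to -1.16) at 24 h.

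GMNN encodes geminin, the inhibitor of CDT1. It had 60.1, 44.1 and 32.9 CPM in tet-ZFP36L1, against 73.9, 58.9 and 76.1 CPM in tet-control. Both lines were lower at 6 h than at 0 h, and at 24 h the control was back above its 0 h value while tet-ZFP36L1 was at its lowest. The induction difference was -0.12 (-0.28 to 0.05) at 6 h and -0.90 (-1.07 to -0.74) at 24 h. CDT1, the loading factor that geminin holds back, differed by -0.33 at 24 h. The ratio of GMNN to CDT1 in CPM was 1.05, 1.03 and 0.686 in tet-ZFP36L1, against 1.08, 0.994 and 1.05 in tet-control. ORC1, CDC6 and CDT1 lay between -0.20 and 0.11 at 6 h and between -0.33 and -0.29 at 24 h.

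The 6 subunits of the MCM helicase did not move as a block. At 6 h all 6 were above 0, between 0.09 in MCM4 and 0.33 in MCM3, while 50.55% of all genes were below 0. Their median was 0.28, and none passed 1.5-fold. At that time all 6 subunits were below 0 h in tet-control, against 50.8% of all genes, with a median change of -0.38. In tet-ZFP36L1 4 of 6 were below 0 h, against 51.1% of all genes, with a median of -0.14. At 24 h they ran from -0.47 in MCM7 to 0.56 in MCM6, and their median of -0.04 became 0.13 without a scaling factor and 0.11 in TPM.

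MCM6 had 141, 127 and 185 CPM in tet-ZFP36L1 at 0, 6 and 24 h, against 173, 127 and 153 CPM in tet-control. The 24 h library of tet-ZFP36L1 was the highest of the 6, and no other of the 46 genes was above tet-control at 24 h with this scaling. Its induction difference was 0.28 (0.17 to 0.39) at 6 h and 0.56 (0.47 to 0.66) at 24 h, just inside 1.5-fold, and it passed 1.5-fold without a scaling factor (0.74) and in TPM (0.67).

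MCM7, by contrast, had 323, 363 and 251 CPM in tet-ZFP36L1, against 398, 368 and 429 CPM in tet-control. The induction difference of MCM7 was 0.28 (0.22 to 0.35) at 6 h and -0.47 (-0.54 to -0.40) at 24 h. In the ring these proteins sit in equal number, so the ratio of the mRNAs shows how they parted. MCM6 over MCM7 in CPM was 0.438, 0.349 and 0.735 at 0, 6 and 24 h in tet-ZFP36L1, against 0.435, 0.347 and 0.356 in tet-control. The lines had nearly the same ratio at 0 and at 6 h and separated at 24 h, and a ratio within a library does not depend on the scaling. The most abundant transcript assigned to MCM7 was MCM7-210, annotated as a retained intron, with 68.56% of the counts of the gene.

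Ranked by the larger of its absolute differences at 6 and 24 h, UNG was the lowest of the 46 genes, followed by MCM2 and MCM4. MCM2 had 205, 147 and 177 CPM in tet-ZFP36L1, against 274, 183 and 266 CPM in tet-control, and its differences were 0.11 and -0.17. MCM4 had 374, 313 and 319 CPM in tet-ZFP36L1, against 470.0, 368 and 454 CPM in tet-control, with differences of 0.09 and -0.18. In both genes every tet-ZFP36L1 value was below the tet-control value of the same time.

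Of the 8 genes that activate the helicase and fire origins, CDC45 differed most. CDC45, a component of the active helicase (ENSG00000093009, chromosome 22), had 88.2, 42.3 and 36.8 CPM in tet-ZFP36L1 at 0, 6 and 24 h, against 93.9, 82.3 and 95.7 CPM in tet-control. The doxycycline libraries of tet-ZFP36L1 were near one another and far below the other 4 libraries. Its induction difference was -0.86 (-1.01 to -0.71) at 6 h and -1.28 (-1.43 to -1.13) at 24 h. The 4 GINS genes, which join CDC45 in the helicase, did not share this: they lay between 0.12 and 0.40 at 6 h and between -0.43 and -0.10 at 24 h.

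MCM10, which helps the helicase start, had 45.6, 35.4 and 28.9 CPM in tet-ZFP36L1, against 56.1, 51.3 and 56.4 CPM in tet-control. Its differences were -0.23 (-0.42 to -0.05) and -0.66 (-0.84 to -0.47), and all 3 tet-ZFP36L1 values were below all 3 control values. DBF4, the activating subunit of the CDC7 kinase, had 46.6, 74.4 and 41.3 CPM in tet-ZFP36L1, against 49.6, 52.7 and 56.5 CPM in tet-control. Its 6 h value in tet-ZFP36L1 was the highest of the 6, and its difference of 0.59 (0.41 to 0.76) at 6 h lay at the 1.5-fold mark itself. At 24 h the difference of DBF4 was -0.36 (-0.54 to -0.18). DBF4 shares 26.29% of its 31-base words with another gene, mainly the pseudogene DBF4P1, so part of its counts is uncertain. CDC7, the kinase subunit, differed by 0.10 and -0.21.

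The role called S-phase entry kinases holds CDK2, the cyclins CCNE1 and CCNE2, and the phosphatase CDC25A. It was the one role whose median was past 1.5-fold at both times, -0.64 at 6 h and -0.77 at 24 h. All 4 genes were below 0 at both times, against 50.55% of all genes at 6 h and 51.6% at 24 h. CCNE2, cyclin E2, had 30.1, 17.6 and 15.8 CPM in tet-ZFP36L1 at 0, 6 and 24 h, against 29.5, 37.6 and 34.4 CPM in tet-control. The lines began at about the same level and then went opposite ways. The induction difference of CCNE2 was -1.10 (-1.34 to -0.86) at 6 h and -1.13 (-1.37 to -0.88) at 24 h. It shares 35.97% of its 31-base words with INTS8, which overlaps it on the opposite strand, and the sources used here do not say whether the counting used strand.

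CDC25A, the phosphatase that activates CDK2, had 45.1, 25.3 and 23.8 CPM in tet-ZFP36L1, against 58.2, 61.4 and 64.1 CPM in tet-control. All 3 tet-ZFP36L1 values were below all 3 control values, and the doxycycline values were the lowest. The differences of CDC25A were -0.90 (-1.09 to -0.70) at 6 h and -1.04 (-1.23 to -0.85) at 24 h. CDK2, the kinase itself, had 161, 111 and 107 CPM in tet-ZFP36L1, against 176, 159 and 165 CPM in tet-control. Its differences of -0.38 (-0.49 to -0.28) and -0.50 (-0.60 to -0.39) were within 1.5-fold. CCNE1, cyclin E1, differed by -0.38 at 6 h and -0.27 at 24 h, and its level was lower at 6 h than at 0 and 24 h in both lines.

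**Figure D3:**
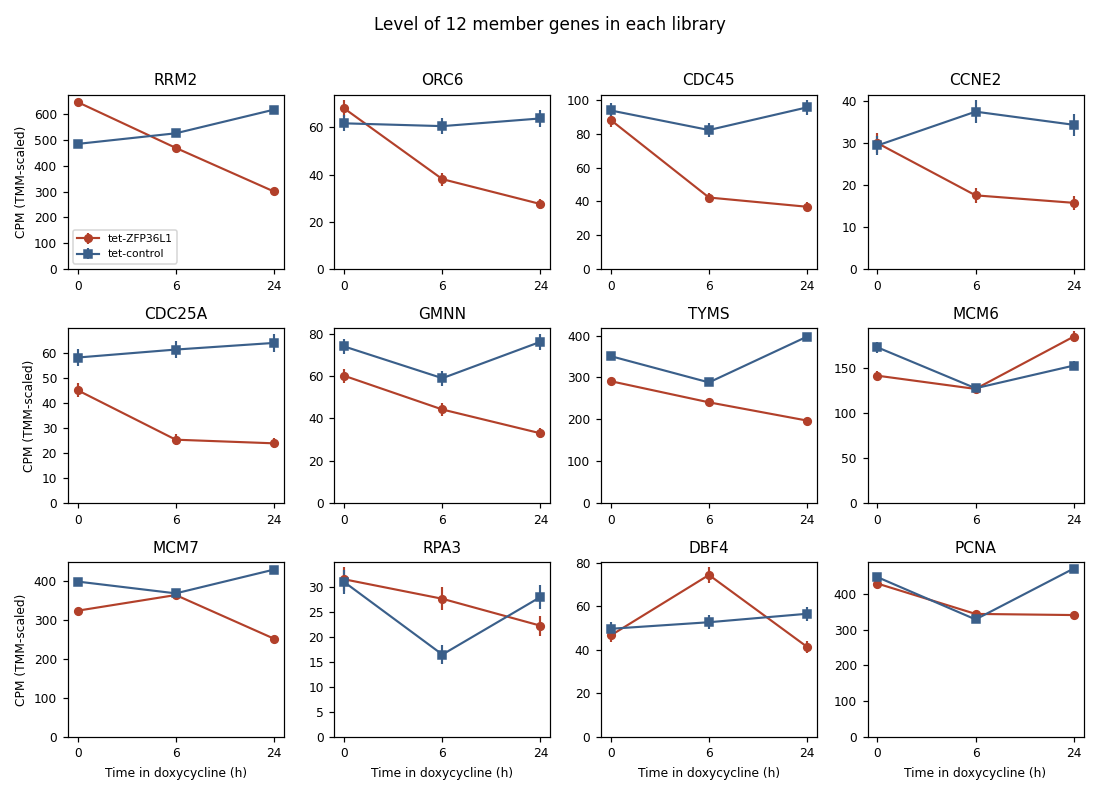
Level of 12 of the genes in each library (CPM, vertical axis from 0) against time in doxycycline (0, 6 and 24 h, evenly spaced). Red circles are tet-ZFP36L1, blue squares are tet-control, each point is 1 library and bars are 95% counting error. ORC6, CDC45, CCNE2 and CDC25A separate by 6 h, RRM2, GMNN and TYMS are widest apart at 24 h, and MCM6 is highest in tet-ZFP36L1 at 24 h at 185 CPM.

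None of the 7 measured polymerase and primase genes passed 1.5-fold. They lay between -0.16 and 0.40 at 6 h and between -0.53 and 0.19 at 24 h. PRIM1, the catalytic subunit of primase, was the lowest at 24 h, with 25.1, 24.0 and 17.3 CPM in tet-ZFP36L1, against 29.6, 24.2 and 29.8 CPM in tet-control. The lines nearly met at 6 h, and the 24 h library of tet-ZFP36L1 was the lowest of the 6. The difference of PRIM1 was 0.22 (-0.03 to 0.47) at 6 h and -0.53 (-0.78 to -0.29) at 24 h. POLD3, an accessory subunit of polymerase delta, was highest at 24 h at 0.19, and POLA1 and POLD1, catalytic subunits of polymerases alpha and delta, stood at -0.01 and -0.02. The low gene PRIM2 had 1.72, 1.24 and 1.83 CPM in tet-ZFP36L1, against 1.04, 0.642 and 1.27 CPM in tet-control, too few counts to place it.

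PCNA, the sliding clamp, had the highest mean level per length of the 47 genes, 422 TPM. It had 429, 344 and 341 CPM in tet-ZFP36L1 at 0, 6 and 24 h, against 447, 328 and 471 CPM in tet-control. The lines differed by -0.06 at 0 h and 0.07 at 6 h, and at 24 h the control was above its starting level while tet-ZFP36L1 was not. The induction difference of PCNA was 0.13 (0.06 to 0.19) at 6 h and -0.41 (-0.47 to -0.35) at 24 h.

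The subunits of the clamp loader, replication factor C, spread widely at 24 h. RFC3 had 74.5, 61.2 and 43.2 CPM in tet-ZFP36L1, against 96.0, 69.2 and 94.5 CPM in tet-control, and its difference was 0.18 (0.04 to 0.33) at 6 h and -0.76 (-0.91 to -0.61) at 24 h. RFC5, RFC2 and RFC4 were at -0.46, -0.22 and 0.03 at 24 h. RFC3 remained past 1.5-fold without a scaling factor (-0.59) and not in TPM (-0.53).

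RPA3, the smallest subunit of the single-strand binding protein RPA, had 31.5, 27.6 and 22.2 CPM in tet-ZFP36L1, against 30.9, 16.4 and 27.9 CPM in tet-control. The value that stands apart is the control at 6 h, so that its induction difference of 0.71 (0.45 to 0.96) at 6 h comes with a change of -0.19 in tet-ZFP36L1 and -0.89 in tet-control. At 24 h RPA3 differed by -0.35 (-0.58 to -0.12). RPA1 and RPA2, the larger subunits, were at 0.07 and 0.22 at 6 h and at -0.25 and -0.14 at 24 h.

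FEN1 and LIG1, which trim and seal Okazaki fragments, differed by 0.30 and 0.22 at 6 h and by -0.41 and -0.12 at 24 h. CLSPN, the checkpoint mediator claspin, was at -0.33 at both times, with 76.0, 61.0 and 60.5 CPM in tet-ZFP36L1, against 86.0, 87.0 and 86.2 CPM in tet-control. UNG, which removes uracil from DNA, had 99.8, 59.7 and 108 CPM in tet-ZFP36L1, against 143, 95.5 and 144 CPM in tet-control. It dipped at 6 h in both lines, by -0.74 in tet-ZFP36L1 and -0.58 in tet-control, and its induction differences were -0.16 (-0.29 to -0.03) and 0.10 (-0.02 to 0.21).

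The nucleotide supply genes had the second lowest median of the roles at 24 h, -0.60, after 0.14 at 6 h. RRM2, the small subunit of ribonucleotide reductase (ENSG00000171848, chromosome 2), had 647, 469 and 300.4 CPM in tet-ZFP36L1 at 0, 6 and 24 h, against 485, 526 and 618 CPM in tet-control. Of the 46 genes RRM2 stood highest in tet-ZFP36L1 over tet-control at 0 h, by 0.42, and by 24 h it stood below tet-control at -1.04. The lines crossed between 0 and 6 h. Its induction difference was -0.58 (-0.64 to -0.52) at 6 h, just inside 1.5-fold, and -1.45 (-1.51 to -1.40) at 24 h. The large subunit, RRM1, had 230.2, 249 and 184 CPM in tet-ZFP36L1, against 227, 202 and 249 CPM in tet-control, and differed by 0.28 and -0.46. The ratio of RRM2 to RRM1 in CPM was 2.81, 1.88 and 1.64 in tet-ZFP36L1, against 2.14, 2.60 and 2.48 in tet-control.

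TYMS, thymidylate synthase, had 291, 240.3 and 197 CPM in tet-ZFP36L1, against 351, 288 and 398 CPM in tet-control. All 3 tet-ZFP36L1 values lay below the control value of the same time, and the gap was widest at 24 h. Its difference was 0.01 (-0.07 to 0.08) at 6 h and -0.74 (-0.82 to -0.67) at 24 h, and it was within 1.5-fold without a scaling factor (-0.57) and in TPM (-0.53). TYMS overlaps ENOSF1 on the opposite strand, shares 22.68% of its 31-base words with other genes and 15.46% with ENOSF1. TK1, thymidine kinase, differed by 0.38 at 6 h and -0.33 at 24 h.

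Across these scalings RRM2, ORC6, CDC45, CCNE2, CDC25A and GMNN were past 1.5-fold lower at 24 h in each, that is with TMM factors, DESeq2 size factors, no factor, TPM and protein-coding genes alone. The 22 genes with an E2F-type word in the promoter window were at a median of -0.32 at 24 h with 4 (18.2%) lower by 1.5-fold, near the 17.4% of all genes. The 16 measured genes with a window and no word were at -0.38 with 4 lower. The medians of the 7 genes with TATTTAT in the searched 3' UTR were -0.09 at 6 h and -0.34 at 24 h, against 0.18 and -0.33 for the 39 without it. These 39 include CCNE2, searched on a transcript with 35.26% of its counts, while the transcript with 53.72% was not searched. LIG1, MCM4, MCM7 and RPA3, also among the 39, were likewise not searched on the transcript with most counts. Over all genes the medians with and without the word were -0.29 and 0.09 at 6 h, and -0.27 and 0.05 at 24 h.

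Between genes, levels compare only per length. By mean TPM the highest were PCNA with 422, MCM4 with 364, TYMS with 360 and RRM2 with 319. Transcripts shorter than 1000 bases, for which the length correction is largest, held 73.44% of the TPM of MCM4 and 54.08% of that of TYMS, so the order of the 4 is uncertain. The most abundant transcript was protein coding in 45 of the 47 genes, and it held at least 50% of the counts in 40. DBF4-204, annotated for nonsense-mediated decay, led in DBF4 with 85.56%.

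Genes with more counts had lower differences at 24 h in the table as a whole. With all 11909 genes in 5 bins of equal size, from the lowest to the highest mean count, the median induction difference at 24 h was 0.23, 0.10, -0.04, -0.09 and -0.21. The replication genes lie mostly in the upper bins, with 0, 1, 11, 15 and 19 genes, and their medians there were -0.53 for the single gene of the second bin and -0.30, -0.33 and -0.31 above it. Taken relative to the median of each gene's own bin, a comparison added after the data were seen, the median induction difference at 24 h was -0.22, with 9 genes lower and 1 higher, against 16.9% and 12.8% of all genes. On the same footing the median difference between the lines at 24 h was -0.36 with 13 genes lower and 0 higher, against 18.5% and 18.1% of all genes. A list of 26 housekeeping genes had a median of -0.41 at 24 h with 10 (38.5%) lower and 1 higher, against 17.4% and 13.9% of all genes. That is a lower median and a higher share of lower calls than in the replication genes, at -0.33 with 9 (19.6%) lower. At 6 h the housekeeping list was at -0.07 with 3 (11.5%) lower and 0 higher, against 14.3% and 7.02% of all genes.

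**Figure D4:**
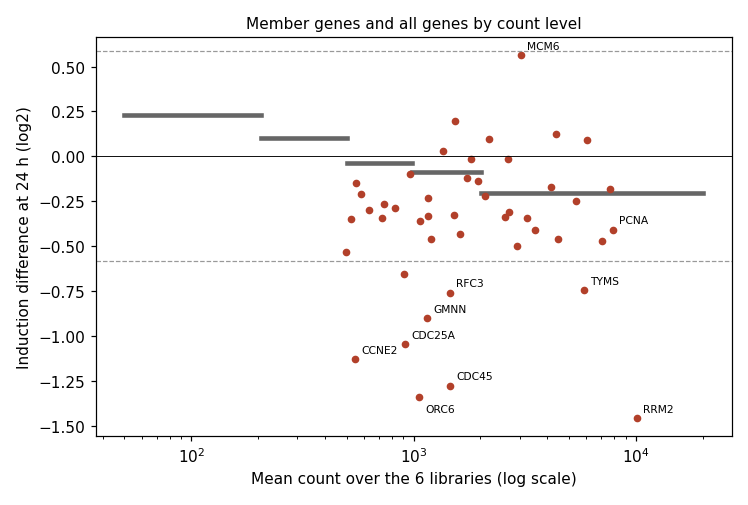
Induction difference at 24 h (log2, vertical axis) of the 46 genes against their mean count (log scale). Red points are the replication genes, grey bars are the median of all genes in each of the 5 bins by mean count (the bar of the highest bin is cut short at the right) and dashed lines mark 1.5-fold. The grey bars descend from 0.23 to -0.21. Of the labelled genes, RRM2 at -1.45 lies well below the bar of its own bin, and MCM6 at 0.56 lies above its own.

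Genes of the same pathway outside the 47 were read from lists chosen with earlier results of these data known, 81 of 82 of them measured. Their median at 24 h was -0.34, with 22 (27.2%) lower and 2 (2.5%) higher by 1.5-fold, against 17.4% and 13.9% of all genes. At 6 h it was -0.06 with 10 (12.3%) lower and 0 higher, against 14.3% and 7.02% of all genes. Among 28 other replication factors the median at 24 h was 0.00 with 5 (17.9%) lower and 1 higher, the share of lower genes being near that of all genes, and it became 0.17 without a scaling factor. The largest differences were -0.91 in MTBP, a partner of the firing factor TICRR, -0.89 in DSCC1, which serves an alternative clamp loader, and -0.81 in TOP2A, a topoisomerase.

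The 31 other nucleotide synthesis enzymes had a median of -0.29 at 24 h, with 9 lower and 1 higher, against 17.4% and 13.9% of all genes. DCK, deoxycytidine kinase, had 52.1, 22.9 and 15.5 CPM in tet-ZFP36L1, against 48.5, 42.7 and 46.4 CPM in tet-control, a difference of -0.99 at 6 h and -1.65 at 24 h. MTHFD2, a mitochondrial folate enzyme, was at -1.42 and PAICS, of purine synthesis, at -1.04 at 24 h. The 8 measured chromatin replication and histone supply genes had a median of -0.29 with none past 1.5-fold, and SLBP, ASF1A and DNMT1 were at -0.47, -0.34 and -0.34.

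The 14 E2F, RB and S-phase cyclin genes were lowest of the lists, at -0.51 in the median at 6 h and at -0.70 in the median at 24 h. At 6 h 6 (42.9%) were lower and 0 higher, against 14.3% and 7.02% of all genes, and at 24 h 8 (57.1%) were lower and 0 higher, against 17.4% and 13.9%. The genes that moved include both drivers and brakes of S-phase entry. CCND1, cyclin D1, had 859, 310.0 and 221 CPM in tet-ZFP36L1, against 705, 613 and 661 CPM in tet-control, and differed by -1.86 at 24 h. RB1, which restrains E2F, differed by -1.52, and CDKN1A, an inhibitor of CDK2, by -2.07.

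**Figure D5:**
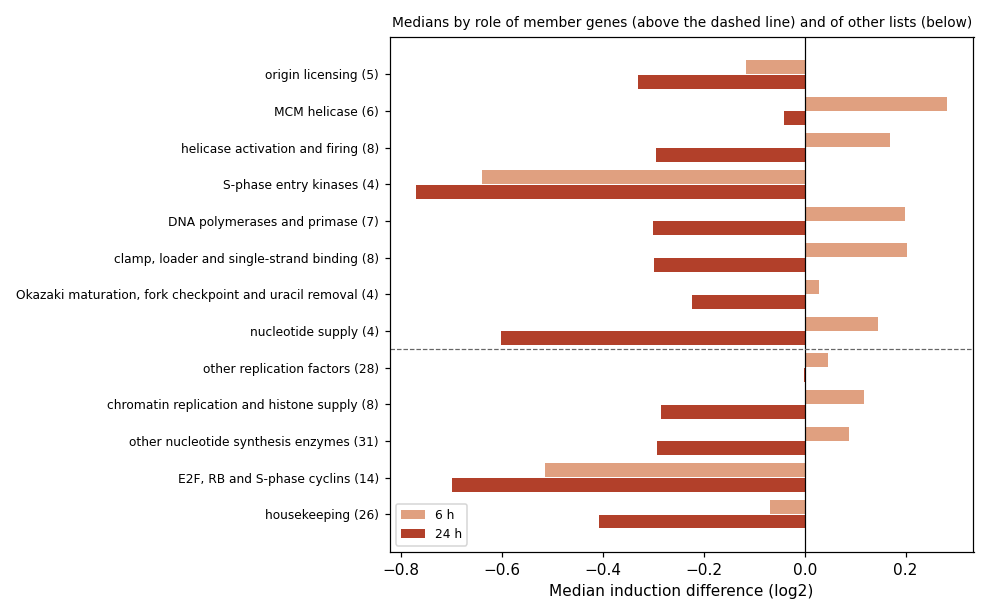
Median induction difference (log2, horizontal axis) at 6 h (light bars) and 24 h (dark bars) for the 8 roles of the 47 genes, above the dashed line, and for other lists, below it, with the number of measured genes in brackets. The S-phase entry kinases reach -0.77 and the E2F, RB and S-phase cyclin list -0.70 at 24 h, while the MCM helicase is at -0.04 and the housekeeping list at -0.41.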

How the data were processed

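Per the labels' protocols, total RNA of 6 J82 cultures was read on a BGISEQ-500 instrument, 1 library per group, with groups taken from sample titles. The tools in the submitters' processing notes are kallisto and DESeq2, and the build is hg19, without versions. The deposited tables give, per the file headers, transcript and effective lengths, estimated counts that need not be whole, and TPM, which is scaled for length and depth. Strand and fragment settings are not given in the sources used here.

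Of 196354 transcripts 181857 were found by identifier in GENCODE 29 (GRCh38), and those without a match held 5.12% to 5.47% of the estimated counts and were left out. The deposited estimated counts were added up by gene, then rounded, which gave CPM with TMM factors (edgeR 4.0.16, R 4.3.3, genes averaging 10 counts or more) and log2(CPM + 0.5). Genes averaging 50 counts or more were compared. Because no group has a replicate, no count test was run, and calls rest on a 1.5-fold mark. Intervals come from the counts by the delta method at the 95% level, cover counting error only, and treat reads without molecular identifiers as independent molecules. The procedure was run on simulated counts that held counting error alone, with the scaling factors given. That run cannot show how variation between cultures or the choice of scaling bears on the calls.

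The 47 genes, the other lists and the named genes were chosen with earlier results of these data known. By rule, values of every library are given for the 12 genes with the largest difference at 24 h, the 6 at 6 h, the 4 with the highest mean TPM and the 3 nearest to 0 (smallest larger absolute difference of both times), and the 3 largest at 24 h of each other list are named. Further members were named after their values were seen. Alternatives were plain CPM, size factors of DESeq2 1.42.0, TPM, other count minimums, pseudocounts and folds, an own-change rule, protein-coding genes alone, and others added after seeing the data. Computation used Python 3.11.15 with numpy 2.4.6, pandas 2.3.3 and scipy 1.17.1, and figures matplotlib 3.10.9.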

Additional observations from a re-analysis of the deposited data

Results flagged for a closer look

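In 3 genes the lines moved opposite ways from 0 h, each beyond counting error, and ended at least 2-fold apart. This rule was applied to the replication genes only, and the share of all genes that meet it was not computed. CCNE2 was lower in tet-ZFP36L1, by -0.76 at 6 h and -0.91 at 24 h, and higher in tet-control, by 0.34 and 0.22, which gave differences of -1.101 at 6 h and -1.127 at 24 h. CDC25A at 24 h stood at -0.91 in tet-ZFP36L1 and at 0.14 in tet-control, a difference of -1.043. RRM2 at 24 h stood at -1.11 in tet-ZFP36L1 and at 0.35 in tet-control, a difference of -1.455. With 1 library per group these differences were not tested.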

How the results depend on the processing

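No paired analysis was possible because each group is 1 library. The medians, counts and single-gene values were recomputed under 12 settings, 2 of them added after seeing the data (leaving out genes that share over 20% of their words, and taking each gene relative to 1 of 5 bins by mean count). Of 204 medians and counts, 177 stayed near the main value and 27 moved, and of 720 single-gene values 62 moved and 0 changed sign from a called value. Plain CPM gave a median of -0.16 for the induction difference at 24 h, -0.15 for the change within tet-ZFP36L1 at 24 h, -0.40 between the lines at 24 h with 11 lower, 1 higher induction difference at 24 h, and -0.17 for the other pathway genes. TPM gave -0.19 for the change within tet-ZFP36L1, -0.39 between the lines with 11 lower, 1 higher induction difference and -0.17 for the other pathway genes, all at 24 h. Relative to the bins the median induction difference at 24 h was -0.22, the change within tet-ZFP36L1 -0.15, the lines -0.36 apart with 13 lower, and the other pathway genes at -0.18, with 1 higher induction difference at 6 h and 1 at 24 h. With a pseudocount of 5 CPM 0 genes were higher at 6 h, against 3.21% of all genes. At 2-fold, 1 was lower and 0 higher at 6 h, against 4.69% and 1.6% of all genes. Lower by 2-fold at 24 h were 5, and 7 of the other pathway genes, against 6.5% of all genes. In the change within tet-ZFP36L1 at 24 h 3 were lower, against 6.23% of all genes. Between the lines at 24 h 8 were lower, against 8.32% of all genes. Requiring the own change past the fold as well left 1 higher at 6 h, against 3.06% of all genes. Leaving out genes that share words also left 1 higher at 6 h, against 7.02%. Protein-coding genes alone gave 1 higher at 24 h, against 14.1%. Apart from scaling and thresholds, where the construction sets the shift, the cause was not tested. The limits are the single library per group, intervals that hold counting error alone, a scaling factor that moves every 24 h value of tet-ZFP36L1, and a difference at 24 h that falls with a gene's count.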
